A study of Mus musculus with 12 samples.

Results

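The genes described here encode the scaffold of the postsynaptic density and the adhesion molecules that hold the synapse together. They were taken as 46 symbols from the gene name column of an RPKM table (reads scaled to gene length and to library depth) of mouse hippocampus. All 46 were found among 41743 genes, and all 46 passed a filter of a mean of at least 0.5 RPKM, as did 13493 genes in all. The rule uses the names alone.

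The control group was 6 male C57Bl/6 mice aged 12 weeks that received vehicle, and the toxicant group was 6 such mice that received pyridostigmine bromide (2.5 mg/kg), chlorpyrifos (a dose of 12.5 mg/kg) and DEET (7.5 mg/kg in each injection) under the skin once daily on weekdays for 2 weeks. Pyridostigmine bromide reversibly inhibits cholinesterase, chlorpyrifos is an insecticide that inhibits the same enzyme, and DEET repels insects, so the exposure models that of Gulf War soldiers. Whole hippocampi were taken when the exposure ended, and polyadenylated RNA was sequenced. The 3 compounds were given together, so their effects cannot be told apart. In bulk tissue, fewer cells of a type and less RNA per cell cannot be told apart either.

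Across an excitatory synapse, presynaptic neurexins and receptor phosphatases bind postsynaptic neuroligins, LRRTMs, SALMs (Lrfn genes) and Slitrks. Below the postsynaptic membrane, MAGUK proteins such as PSD-95 hold receptors and adhesion molecules, and are tied by SAPAP, Shank and Homer proteins to actin and to internal calcium stores. Attached regulators of small GTPases, such as kalirin, shape the dendritic spine. In the hippocampus this machinery is best known for its part in synaptic plasticity.

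Control 4 and control 5 held the same value in every gene, so they differed by less than the sampling noise and were counted as 1 sample, control 4-5. That left 5 control and 6 toxicant libraries, at depths from 21.5 M to 34.9 M reads per library, recovered from the steps between RPKM values. The share of those reads that lay on genes was 89.5%, 78.4%, 88.4%, 83.1% and 87.4% in controls 1, 2, 3, 4-5 and 6, and 76.8% to 83.8% in the toxicant libraries. Control 2 thus stood apart from the other controls and, with control 4-5, lay inside the toxicant range. The summed levels of the markers of neurons, of the dentate gyrus, of CA1, and of CA2 and CA3 together were above 0 in every library. None of the 68 marker genes examined was at 0 in all 11 libraries.

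No member passed the test (limma on log2(RPKM + 0.5), Benjamini-Hochberg adjusted p under 0.05 over 13493 genes). Neither did any other gene, so the share called was 0% of all genes tested. The smallest adjusted p among the members was 0.169, for Kalrn. At an unadjusted p under 0.05, 11 members were lower and 2 were higher in the toxicant group. Those 13 of 46 compare with 20.3% of all genes tested, 17.0% lower and 3.33% higher. The limma-voom fit to reads recovered from the RPKM steps called no gene either.

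The members' values lay slightly below 0, as did those of most genes. Of the 46 log2 fold changes (toxicant minus control), 32 were below 0, with a median of -0.13 and a range from -0.35 (Slitrk1) to 0.36 (Lrrtm2). Over all genes tested, 70.0% were below 0 and the median was -0.11. After median-ratio scaling, which moved the median of all genes to 0.0014, 23 of the 46 members (and 49.7% of all genes) were below 0 and the members' median was -0.0045. As a list the members thus lay near all genes tested. Their own values spread more widely than these medians differ, but that spread includes the error of each value and was not tested.

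**Figure D1:**
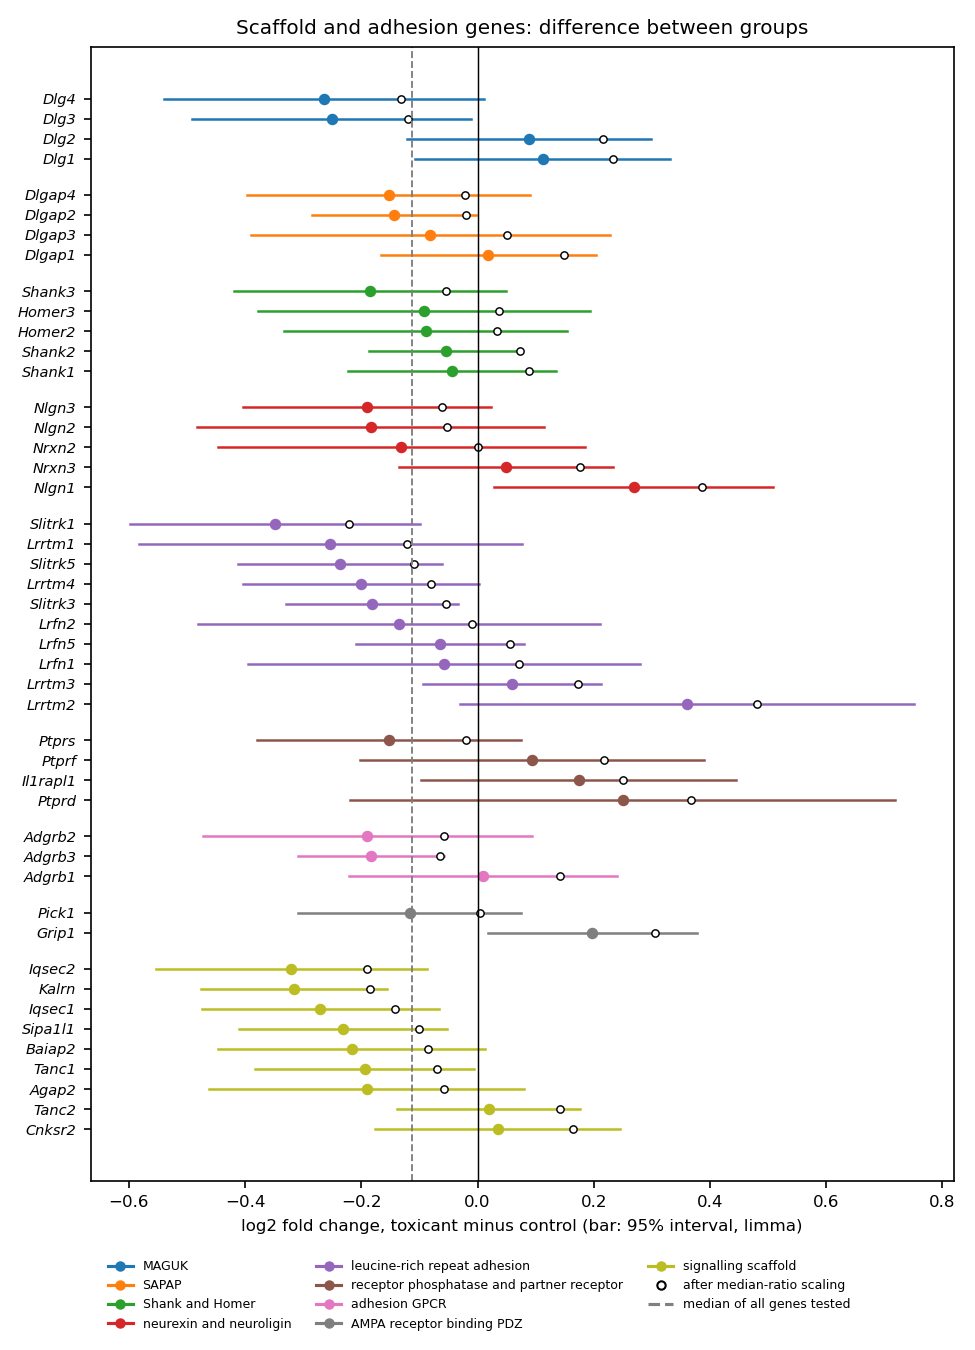
Each point is the log2 fold change (toxicant minus control) of 1 of the 46 genes with its 95% limma interval, grouped and coloured by role. Open circles give the value after median-ratio scaling, and the dashed line marks the median of all genes tested, -0.11. The signalling scaffolds lie mostly to the left, while Nlgn1, Lrrtm2 and Grip1 lie to the right of 0.

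Levels spanned a wide range. Mean RPKM, which is per length and can be compared between genes, ran from 0.892 for Il1rapl1 to 220 for Agap2, with a median of 13.5, and 29 members were at 10 RPKM or more. Between 224 and 35308 reads per library lay behind a member on average (median 3504). At the mean reads of a member, counting error had a median of 1.69%, and the fewest reads behind any value, 137, give 8.54%. The coefficient of variation between libraries had a median over the members of 15.7% in controls and 7.84% in toxicant libraries. Counting error reached the control spread for 1 member, Lrrtm3, and the toxicant spread for none. The controls were the more variable group for 40 of 46 members and for 78.7% of all genes tested.

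Kalrn and Adgrb3 were the 2 members in which the groups did not overlap, with all 6 toxicant libraries below the lowest control. Over all genes tested, 2.03% were separated in that direction. Kalrn encodes kalirin, a guanine nucleotide exchange factor that acts on actin in dendritic spines, and lies on the minus strand at chr16:33969073-34573532 (GRCm38, GENCODE M21). Adgrb3 encodes BAI3, an adhesion G protein-coupled receptor that binds secreted C1q-like proteins, and lies on the minus strand at chr1:25067476-25829707.

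The sequence in front of a RefSeq start (GRCm38.p6) is shown for these genes because they are the members that separated the groups. That of Shank3, a scaffold whose groups overlapped, is shown as an example with matches. Each is printed 5′ to 3′ on the gene's strand without bases of annotated exons, at chr16:34514116-34514277 for Kalrn (a start inside the gene's annotated span), chr1:25829708-25829957 for Adgrb3 and chr15:89499358-89499607 for Shank3. Capitals mark matches to a motif.
Kalrn: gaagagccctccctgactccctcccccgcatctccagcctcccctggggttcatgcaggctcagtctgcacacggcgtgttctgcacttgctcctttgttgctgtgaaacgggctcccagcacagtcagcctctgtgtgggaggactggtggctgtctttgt
Adgrb3: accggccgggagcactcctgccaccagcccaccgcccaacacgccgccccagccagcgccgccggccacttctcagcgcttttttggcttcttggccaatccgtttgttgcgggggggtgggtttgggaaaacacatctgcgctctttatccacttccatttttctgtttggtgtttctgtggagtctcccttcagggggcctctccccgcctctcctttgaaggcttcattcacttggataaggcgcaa
Shank3: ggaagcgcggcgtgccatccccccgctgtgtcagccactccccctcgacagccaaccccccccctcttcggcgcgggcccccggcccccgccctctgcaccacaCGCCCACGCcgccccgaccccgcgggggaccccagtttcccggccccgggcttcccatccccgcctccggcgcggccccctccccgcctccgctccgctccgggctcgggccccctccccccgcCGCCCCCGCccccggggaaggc
The motifs searched on both strands were the cyclic AMP response element TGACGTCA, its half-site TGACG (which TGACGTCA contains), the Egr motif GCGNGGGCG and the E-box CACGTG. Kalrn and Adgrb3 held none of these letters in the 250 bases before the start, and Shank3 held 2 Egr matches. Agap2 and Nlgn2, whose groups also overlapped, held no match. Whether matches go with the separation of the groups was not tested.

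RefSeq windows were matched for 36 of the 46 members. Of these 36 genes, 0 held TGACGTCA, 5 held TGACG, 7 held the Egr motif and 3 held the E-box in the 250 bases before a start. Of 27025 genes with a window, 1.77% held TGACGTCA, 19.8% TGACG, 5.33% the Egr motif and 6.86% the E-box. The 36 members had 59 windows and the 27025 genes 32851, so the members had more windows per gene. Per window, 0% of the members' windows held TGACGTCA, 8.47% TGACG, 11.9% the Egr motif and 6.78% the E-box. For all windows the shares were 1.55%, 17.8%, 4.70% and 6.02%. The members' windows had a median GC content of 56.8%, against 52.4% for all windows, and the Egr motif is itself rich in G and C. A match is a description of the letters and not a measured site.

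Kalrn was at 22.5, 19.7, 22.4, 21.8 and 20.7 RPKM in the controls (libraries 1, 2, 3, 4-5 and 6, the order used throughout). In the toxicant libraries it ran from 15.5 to 19.4 RPKM, with a median of 17.0. The highest toxicant library was thus just below control 2, the lowest control. The log2 fold change was -0.32 ± 0.07 (SE), or 19.6% lower on the log2(RPKM + 0.5) scale, with a limma adjusted p of 0.169.

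Adgrb3 was at 4.54, 4.54, 4.71, 4.39 and 4.57 RPKM in the controls and ran from 3.73 to 4.21 RPKM (median 3.97) in the toxicant libraries. The controls lay closer together than those of Kalrn, at 4.55 ± 0.113 RPKM (SD, n = 5), against 3.95 ± 0.188 (SD, n = 6) in the toxicant group. The control coefficient of variation was 2.49%, at a mean of 2122 reads per library, so counting error is not small beside that spread. The log2 fold change was -0.18 ± 0.06 (limma adjusted p 0.207). After median-ratio scaling it was -0.06, and that of Kalrn was -0.19.

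**Figure D2:**
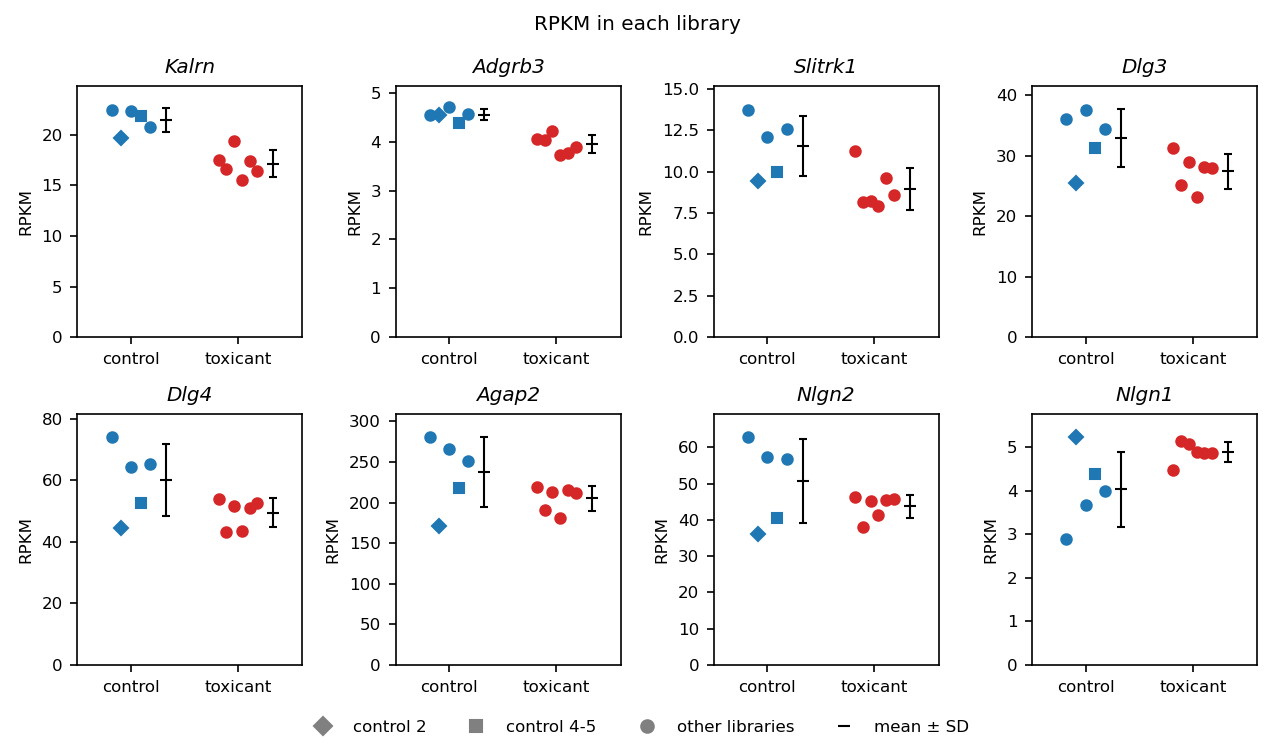
RPKM of 8 members in each control and toxicant library, with the mean ± SD beside each group (n = 5 and n = 6) and control 2 and control 4-5 drawn with their own symbols. The groups are separate for Kalrn and Adgrb3, while for Dlg4, Agap2 and Nlgn2 control 2 and control 4-5 lie among or below the toxicant libraries. For Nlgn1 control 2 lies above every toxicant library, and control 4-5, like the remaining controls, below every one.

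The signalling scaffolds bind or regulate small GTPases around PSD-95, and 7 of the 9 genes of this class were lower, beside 70.0% of all genes tested. At a limma unadjusted p under 0.05, 5 of them, Kalrn among them, were lower, beside 17.0% of all genes. After median-ratio scaling 7 were again below 0, beside 49.7% of all genes. Agap2, an Arf GTPase-activating protein and the most abundant member, was at 281, 172, 266, 218 and 251 RPKM in the controls and at 181 to 219 RPKM (median 213) in the toxicant libraries. Control 2 was the lowest of all 11 libraries for this gene, so the groups overlapped, and the log2 fold change was -0.19 ± 0.13 (limma adjusted p 0.323). The other 4 genes at an unadjusted p under 0.05 were the Arf6 exchange factors Iqsec1 (-0.27 ± 0.09) and Iqsec2 (-0.32 ± 0.11), the Rap GTPase-activating protein Sipa1l1 (-0.23 ± 0.08) and the scaffold Tanc1 (-0.19 ± 0.09). Iqsec2 was at 31.4 ± 5.17 RPKM in controls and 24.8 ± 1.81 RPKM in toxicant libraries. The log2 fold change of Baiap2, an organiser of actin and membrane curvature, was -0.22 ± 0.11, while those of Cnksr2 and Tanc2 were 0.03 and 0.02.

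The MAGUK genes, which encode the membrane-associated guanylate kinases that anchor glutamate receptors, were divided. Before and after median-ratio scaling 2 of 4 were below 0, beside 70.0% and 49.7% of all genes tested. With the share of reads on genes in the model all 4 were, beside 61.2% of all genes. Dlg4, which encodes PSD-95, was at 74.0, 44.3, 64.3, 52.6 and 65.1 RPKM in the controls and ran from 43.3 to 54.0 RPKM (median 51.3) in the toxicant libraries. Control 2 and control 4-5 lay within the toxicant range and the other 3 controls above it. Between the groups Dlg4 differed by -0.26 ± 0.13 in log2 units (95% interval -0.54 to 0.01, limma adjusted p 0.251). Dlg3, which encodes SAP102, was at 36.0, 25.4, 37.6, 31.2 and 34.3 RPKM in the controls and ran from 23.2 to 31.3 RPKM (median 28.0) in the toxicant libraries. Its log2 fold change was -0.25 ± 0.11 (limma adjusted p 0.240). Dlg1 (SAP97) and Dlg2 (PSD-93) were at 5.75 ± 0.924 and 12.0 ± 1.94 RPKM in controls and at 6.22 ± 0.532 and 12.7 ± 0.417 RPKM in toxicant libraries, with log2 fold changes of 0.11 and 0.09.

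Among the SAPAP genes, whose proteins link MAGUKs to Shanks, 3 of 4 were lower, beside 70.0% of all genes tested. After median-ratio scaling 2 of 4 were below 0, beside 49.7% of all genes. With the GC trend removed 0 of 4 were, beside 49.2% of all genes. Dlgap2 was at 7.34, 6.46, 7.12, 6.86 and 6.64 RPKM in the controls and ran from 5.74 to 6.82 RPKM (median 6.12) in the toxicant libraries, 5 of which were below every control. On the log2 scale its difference was -0.14 ± 0.06 (limma adjusted p 0.243), and 0.049 with the GC trend removed. Dlgap3, the most abundant SAPAP gene, was at 88.6, 51.6, 84.6, 58.9 and 79.9 RPKM in the controls and at 59.0 to 74.4 RPKM (median 69.2) in the toxicant libraries. Control 2 and control 4-5 lay below all 6 toxicant libraries and the other 3 controls above all 6, so the group difference of -0.08 ± 0.14 averaged opposed values. Dlgap1 and Dlgap4 had log2 fold changes of 0.02 and -0.15.

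All 5 Shank and Homer genes had log2 fold changes below 0, from -0.19 to -0.04, beside 70.0% of all genes tested. Only 1 of the 5, Shank3, remained below 0 after median-ratio scaling, beside 49.7% of all genes. None was at an unadjusted p under 0.05, beside 20.3% of all genes. Shank proteins are the deep layer of the scaffold and Homer proteins connect them to metabotropic glutamate receptors. Shank1 was at 73.0, 60.3, 71.0, 60.1 and 74.3 RPKM in the controls and at 60.9 to 68.1 RPKM (median 66.0) in the toxicant libraries, and its log2 fold change was -0.04 ± 0.08. The controls lay on both sides of the toxicant libraries, as for Dlgap3. Shank3, a gene lost or mutated in Phelan-McDermid syndrome, was at 37.0, 24.5, 34.6, 27.0 and 31.2 RPKM in the controls and at 24.4 to 29.5 RPKM (median 27.1) in the toxicant libraries. Its groups overlapped, and the difference was -0.19 ± 0.11 (limma adjusted p 0.290). Shank2, Homer2 and Homer3 had log2 fold changes of -0.05, -0.09 and -0.09.

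The neuroligins showed values in opposite directions, though Nlgn2 was above 0 like Nlgn1 with quantile normalization (0.0039 and 0.31) and when the share of reads on genes was in the model (0.10 and 0.07). Nlgn1, found mainly at excitatory synapses, was at 2.89, 5.22, 3.67, 4.38 and 4.00 RPKM in the controls and ran from 4.48 to 5.15 RPKM (median 4.88) in the toxicant libraries. Control 2 was above every toxicant library and the other 4 controls below every one. On the log2 scale the difference was 0.27 ± 0.11 (limma adjusted p 0.230). Nlgn2, found at inhibitory synapses, was at 62.8, 36.2, 57.2, 40.6 and 56.7 RPKM in the controls and ran from 38.1 to 46.4 RPKM (median 45.3) in the toxicant libraries. Here control 2 was below every toxicant library, and the log2 fold change was -0.18 ± 0.14 (limma adjusted p 0.370).

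The ratio of Nlgn2 to Nlgn1 RPKM was 21.7, 6.92, 15.6, 9.27 and 14.2 in the controls, a wide spread within 1 group, and 7.40 to 10.3 (median 9.12) in the toxicant libraries. The groups overlapped, and the difference in the ratio was not tested. Nlgn3 (-0.19 ± 0.10) and the presynaptic neurexins Nrxn2 (-0.13 ± 0.15) and Nrxn3 (0.05 ± 0.08) completed the class. In it 3 of 5 genes were lower, or 2 of 5 after median-ratio scaling, beside 70.0% and 49.7% of all genes tested.

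Of the 10 leucine-rich repeat adhesion genes, 8 were lower, or 6 after median-ratio scaling, beside 70.0% and 49.7% of all genes tested. The 3 of these 10 that were lower at an unadjusted p under 0.05, beside 17.0% of all genes, were all Slitrk genes. Slitrks are postsynaptic partners of the receptor phosphatases. Slitrk1 was at 13.8, 9.44, 12.1, 9.99 and 12.6 RPKM in the controls and ran from 7.93 to 11.2 RPKM (median 8.40) in the toxicant libraries. The toxicant libraries included 4 below every control, and the log2 fold change was -0.35 ± 0.12 (95% interval -0.60 to -0.10, limma adjusted p 0.211), the lowest of the 46. Slitrk5 (-0.24 ± 0.08) and Slitrk3 (-0.18 ± 0.07) were the others, and 5 toxicant libraries lay below every control for Slitrk3.

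The LRRTMs, which bind neurexins, were split, though Lrrtm1 was at 0.07 with the share of reads on genes in the model. Lrrtm1, the most abundant of the class, was at 42.1, 22.2, 39.3, 27.6 and 36.6 RPKM in the controls and at 23.6 to 30.2 RPKM (median 28.0) in the toxicant libraries, and the difference was -0.25 ± 0.15 (limma adjusted p 0.296). Control 2 was below every toxicant library. Lrrtm4 was also lower (-0.20 ± 0.09), while the values of Lrrtm2 (0.36 ± 0.18) and Lrrtm3 (0.06 ± 0.07) were above 0. Lrrtm2 was at 5.59 ± 2.03 RPKM in controls, with control 2 highest at 8.85 RPKM, and at 7.07 ± 1.00 RPKM in toxicant libraries. The SALM genes Lrfn1, Lrfn2 and Lrfn5, whose proteins bind PSD-95 or receptor phosphatases, had log2 fold changes of -0.06, -0.14 and -0.07.

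The receptor phosphatases and Il1rapl1, a postsynaptic partner of Ptprd, lay mostly above 0. Before and after median-ratio scaling 1 of 4 genes was below 0, beside 70.0% and 49.7% of all genes tested. With the share of reads on genes in the model 2 of 4 were, beside 61.2% of all genes. Ptprs, the most abundant of these, was at 51.3, 33.3, 45.5, 37.0 and 44.0 RPKM in the controls and at 34.2 to 39.4 RPKM (median 37.8) in the toxicant libraries. Control 2 lay below and control 4-5 within the toxicant range, and the log2 fold change was -0.15 ± 0.11 (limma adjusted p 0.341). Ptprd (0.25 ± 0.22), Ptprf (0.09 ± 0.14) and Il1rapl1 (0.17 ± 0.12) had values above 0, each with overlapping groups. For Ptprd, control 2 was the highest of all libraries at 8.16 RPKM and control 1 the lowest at 2.73 RPKM.

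Besides Adgrb3, the adhesion G protein-coupled receptors of the BAI family included Adgrb2 at 118, 69.1, 103.7, 82.9 and 101.6 RPKM in the controls and at 72.2 to 93.4 RPKM (median 82.1) in the toxicant libraries. Its log2 fold change was about the same as that of Adgrb3, -0.19 ± 0.13, but its controls spread over the whole toxicant range and past both ends (limma adjusted p 0.340). Adgrb1 was at 51.2 ± 8.28 RPKM in controls and 51.1 ± 3.32 RPKM in toxicant libraries. Adgrb2 and Adgrb3 thus had differences of like size here and after median-ratio scaling (-0.06 for each), with less spread for Adgrb3. With the share of reads on genes in the model their values were 0.05 and -0.16, and with the GC trend removed -0.02 and -0.30. The value of Adgrb1 was 0.01 ± 0.11.

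Grip1 and Pick1 encode PDZ proteins that bind AMPA receptor subunits and act on their transport. Grip1 was at 1.94, 2.67, 2.19, 2.19 and 2.18 RPKM in the controls and ran from 2.26 to 3.01 RPKM (median 2.63) in the toxicant libraries. Without control 2 the groups would not overlap, and with it 2 toxicant libraries were above every control. Grip1 differed by 0.20 ± 0.08 on the log2 scale (limma adjusted p 0.231). Pick1 was at 5.91, 4.27, 5.19, 4.08 and 5.29 RPKM in the controls and at 4.24 to 4.66 RPKM (median 4.52) in the toxicant libraries, and the difference was -0.12 ± 0.09 (limma adjusted p 0.375).

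Control 2 decided how many members passed. It was the lowest control for 26 members and the highest for 8, against 51.5% and 24.1% of all genes tested. Without it, 20 of 46 members passed the adjusted threshold, 16 lower and 4 higher. Over all genes, 36.5% passed (28.0% lower and 8.56% higher), so the members' 43.5% stood near the background. The 4 higher were Nlgn1, Lrrtm2, Il1rapl1 and Grip1. The signalling scaffolds held 7 of the 16 lower, with Kalrn at -0.34 (limma adjusted p 0.0228) and Iqsec2 at -0.41 (limma adjusted p 0.0228). Adgrb3 was at -0.18 (limma adjusted p 0.0376), Dlg4 at -0.37 (limma adjusted p 0.0273) and Slitrk1 at -0.42 (limma adjusted p 0.0252). With control 2 left out and the share of reads on genes in the model, a combination chosen after seeing the data, no member and no other gene passed, and the smallest adjusted p among the members was 0.740. With that covariate and all 11 libraries, no gene passed, and 27 members were below 0 with a median of -0.0070, beside 61.2% of all genes.

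The share of reads on genes ran in parallel with many of these levels. For Dlg4 the 11 libraries lay nearly on 1 line, from 43.3 RPKM at 78.7% of reads on genes to 74.0 RPKM at 89.5%. With the share as a covariate the log2 fold change of Dlg4 was -0.00023, that of Nlgn1 0.07 and that of Slitrk1 -0.14. For Kalrn and Adgrb3 it was -0.25 and -0.16, beside -0.32 and -0.18 without the covariate. Control 2 and control 4-5, whose share lay inside the toxicant range and which were chosen after the values were seen, were both above every toxicant library for 6 members (Dlg2, Homer2, Slitrk3, Tanc2 and, as their groups do not overlap at all, Kalrn and Adgrb3) and below every one for 5 (Dlgap3, Shank1, Lrfn1, Ptprf and Adgrb1). The same held for 9.57% and 3.04% of all genes tested. The part of the share in the differences of the other members was not tested further.

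**Figure D3:**
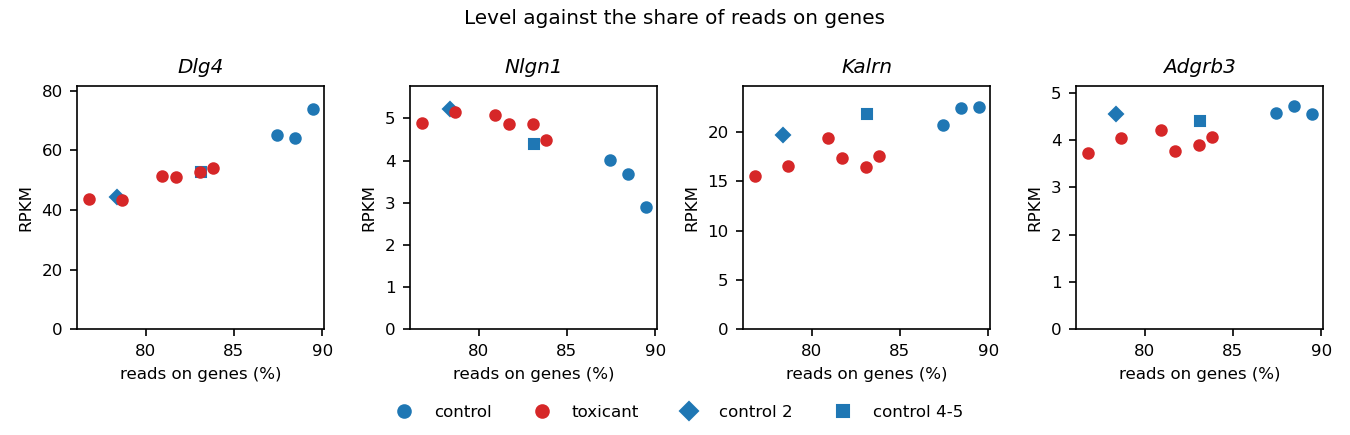
RPKM of Dlg4, Nlgn1, Kalrn and Adgrb3 (vertical axes) against the percentage of a library's reads that lay on genes (horizontal axes), 1 point per library. For Dlg4 and Nlgn1 control and toxicant libraries lie along 1 trend. Kalrn and Adgrb3 are drawn because their groups do not overlap, so all controls lie above all toxicant libraries there.

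Transcript GC content also went with the direction of the values. Of the 26 members with a GC content above the median of all genes tested, 23 were lower, with a median log2 fold change of -0.15. Of all genes above that median, 90.1% were lower, with a median of -0.17. Of the 20 members at or below it, 9 were lower and 11 higher, with a median of 0.03, and of all such genes 49.98% were lower. Across genes, which are not independent replicates, the Spearman rank correlation between GC content and log2 fold change was -0.27 over the 46 members and -0.52 over 13488 genes. With the GC trend of all genes removed, 23 members were below 0, with a median of 0.0068, beside 49.2% of all genes.

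Several members lay away from the median of genes of like GC content. Kalrn (45.5% GC), Adgrb3 (42.2%), Lrrtm4 (38.4%), Slitrk1 (47.1%) and Dlg4 (46.8%) lay below the middle 50% of such genes. Other members did so too, among them Iqsec1, Iqsec2 and Dlg3. By definition that range leaves out 50% of all genes, above or below it, so a place below it is not unusual. After the GC trend was removed, the log2 fold change was -0.47 for Lrrtm4 (the lowest of the members), -0.30 for Kalrn, -0.30 for Adgrb3, -0.28 for Slitrk1 and -0.21 for Dlg4. Conversely, Nlgn1 (38.9% GC) lay on the trend, with 0.02 after its removal, while Grip1 was at 0.28. These genes were picked out after their values were seen.

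**Figure D4:**
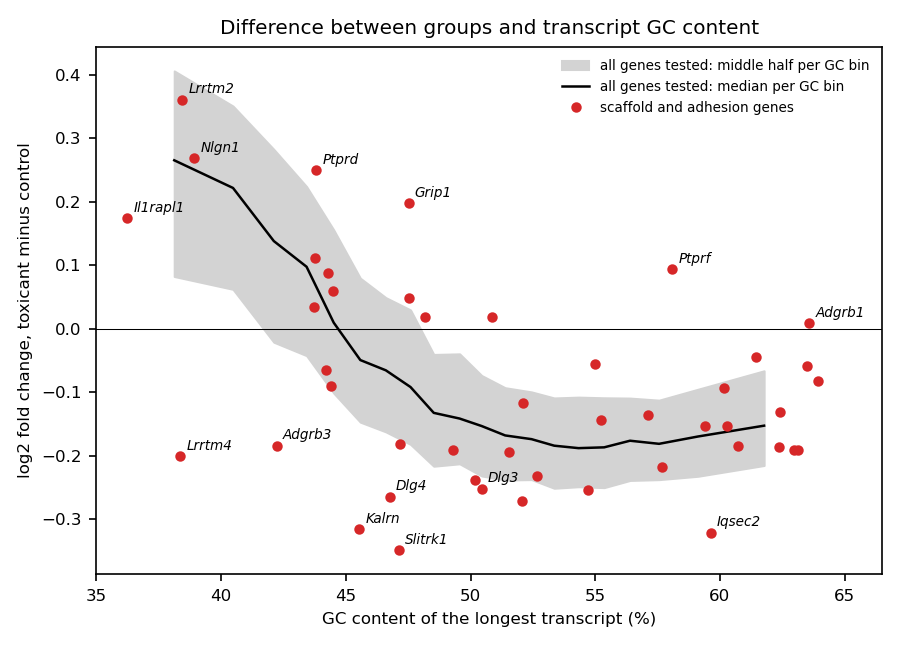
Log2 fold change (toxicant minus control) of the 46 genes (red points) against the GC content of their longest transcript in percent. The black line is the median and the grey band the middle 50% of all genes tested in 20 GC bins. Kalrn, Adgrb3, Lrrtm4, Slitrk1 and Dlg4, among others, lie below the band.

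The members are long genes. Their median genomic span was 116243 bases, against 23023.5 bases for all genes tested, and 11 of them spanned over 500000 bases. The Spearman rank correlation between span and log2 fold change was 0.40 over the members and 0.20 over all genes, again across genes. Summed exon length had a median of 9168.5 bases, against 4306.5 bases. The members lay on 17 chromosomes, with 5 on the X chromosome (Dlg3, Nlgn3, Iqsec2, Il1rapl1 and Cnksr2). For 14 members an exon overlapped a gene on the opposite strand and for 4 a gene on the same strand, so their reads may be shared, since the strand setting of the counting is not given in the sources used here.

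In 18 members the sign was the same under all 23 alternative analyses, 14 lower and 4 higher, beside 24.0% and 7.66% of all genes tested. The 14 lower were Dlg3, Dlg4, Nlgn3, Lrrtm4, Slitrk1, Slitrk3, Slitrk5, Adgrb3, Kalrn, Baiap2, Tanc1, Iqsec1, Iqsec2 and Sipa1l1, and the 4 higher were Nlgn1, Lrrtm2, Lrrtm3 and Grip1. The sign alone was counted, and some values came close to 0. With the share of reads on genes in the model, Dlg4 was at -0.00023, Nlgn3 at -0.0013 and Lrrtm2 at 0.0063. The alternatives share libraries, so this is a description and not a test.

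Other genes of the same machinery were taken from a list of 68, of which 67 passed the filter. None passed the adjusted threshold. At a limma unadjusted p under 0.05, 6 were lower and 7 higher, beside 17.0% and 3.33% of all genes tested. Of the 67, 42 (62.7%, beside 70.0% of all genes) were below 0 with a median of -0.08 (24 and 0.04 after median-ratio scaling). The 3 with the smallest p among the higher were the teneurin Tenm1 (0.49 ± 0.14), an adhesion molecule that binds latrophilins, Slitrk4 (0.48 ± 0.16) and Akap5 (0.49 ± 0.17), an anchor of protein kinase A at the postsynaptic membrane. The value of Slitrk4 was thus above 0 where those of Slitrk1, Slitrk3 and Slitrk5 were below, and its GC content, 34.7%, was lower than theirs. The 3 among the lower were the netrin-G ligand gene Lrrc4 (-0.28 ± 0.10), the glypican Gpc4 (-0.38 ± 0.13) and Adam23 (-0.17 ± 0.06), a receptor of LGI1. Without control 2, 23 of the 67 passed (34.3%, beside 36.5% of all genes tested). Of these, 10 were lower and 13 higher, beside 28.0% and 8.56% of all genes.

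Most cell type markers were lower in the toxicant libraries, as were 70.0% of all genes tested. The summed level of 8 oligodendrocyte markers was 679 to 764 RPKM in controls and 471 to 647 RPKM in toxicant libraries, with 7 of 8 lower and a median log2 fold change of -0.51. For 10 neuronal markers the sum was 1177 to 1473 RPKM in controls and 1082 to 1297 RPKM in toxicant libraries, with 7 of 10 lower and a median of -0.15. All 8 microglial and all 6 endothelial markers were lower, with medians of -0.25 and -0.35. So were all 4 dentate granule, all 4 CA1 and all 5 CA2 and CA3 markers, with medians of -0.26, -0.25 and -0.28. Of 8 astrocyte markers 6 were lower (median -0.15), and of 5 oligodendrocyte precursor markers all 5 were (median -0.13). The 5 choroid plexus markers, genes of a tissue next to the hippocampus, were also all lower, with a median of -0.52, but their sum ran from 15.9 to 2872 RPKM in controls and from 14.7 to 1792 RPKM in toxicant libraries. By contrast, all 5 nuclear-retained RNAs (Malat1, Meg3, Neat1, Miat and Snhg11) were higher, with a median of 0.64 and a sum of 849 RPKM in control 2, the highest of the controls, whose range began at 132 RPKM. After median-ratio scaling the medians were -0.38 for oligodendrocyte, -0.23 for endothelial, -0.12 for microglial, -0.014 for neuronal and -0.025 for astrocyte markers. They were -0.0028 for precursor, -0.13 for dentate granule (2 of 4 lower), -0.14 for CA1 and -0.14 for CA2 and CA3 markers. For choroid plexus markers the median was then -0.44, and for nuclear-retained RNAs 0.77. At a limma unadjusted p under 0.05, 17.0% of all genes tested were lower and 3.33% higher. Lower by that measure were 7 of 8 oligodendrocyte, 6 of 6 endothelial, 4 of 8 microglial and 2 of 8 astrocyte markers. So were 3 of 5 CA2 and CA3, 2 of 4 CA1 and 2 of 4 dentate granule markers. Among neuronal, precursor and choroid plexus markers 1 of 10, 1 of 5 and 0 of 5 were lower. Higher were 1 neuronal marker and 1 nuclear-retained RNA. None of these markers passed the adjusted threshold, and their part in the members' values was not tested.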

How the data were processed

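Per the file headers, the authors deposited an RPKM table of 41743 genes by 12 libraries. No aligner, counter, genome build or annotation is named there, and each is not given in the sources used here. Per the labels' protocols, polyadenylated RNA was selected from TRIzol extracts and sequenced as single reads. Replicates are different animals per the labels.

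Multiplied by summed exon lengths from GENCODE M21 (found for 41675 genes), the values were whole reads within 0.05 reads for 98.5% to 98.7% of the values under 200 reads in each library, which gave the depths stated. For genes that averaged 0.5 RPKM or more, linear models were run in R 4.3.3 by limma 3.58.1 (trended eBayes, two-sided, no covariate, Benjamini-Hochberg over 13493 genes). The pseudocount of 0.5 understates changes of low genes. The script was tested on simulated data. The design named 12 samples, and control 4 and 5 were merged because their values were identical.

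The members and lists were chosen with earlier results of these data known. In each role class, the most abundant member and the one with the smallest p are given with each control value and the lowest, median and highest toxicant value, as is every member whose groups did not overlap. For other pathway genes, the 3 with the smallest p in each direction are named. Promoter sequences are RefSeq's. Alternatives were other pseudocounts, filters, scalings, covariates, a replicate block, voom, the 12 libraries as deposited, and leaving out each library. They are reported in the closing section.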

Additional observations from a re-analysis of the deposited data

Results flagged for a closer look

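In 3 of 46 groups examined, 1 library lay far from the others of its group by Dixon's criterion, against 2.3 that chance gives at 1 in 20. Tenm1 was at 1.32 RPKM in toxicant 1, below the other 5 toxicant libraries. Akap5 was at 6.82 RPKM in toxicant 1, likewise the lowest of its group. Slitrk4 was at 6.68 RPKM in control 2, above the other 4 controls. All are genes of the comparison list, and no group of a scaffold or adhesion gene described in full had such an outlying value.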

How the results depend on the processing

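The counts rested on control 2 and on scaling. Leaving out each library in turn gave 0 to 4929 genes, 0 to 20 members and 0 to 23 other pathway genes past the threshold, with the high values without control 2 and 0 in each of the other 10. The members' median ran from -0.20 to -0.08 and the members at an unadjusted p under 0.05 from 8 (without control 3 or control 6) to 28 (without control 2), with 32 to 35 lower. A pseudocount of 0.1 called 1 gene and the 12 libraries as deposited 10 genes, none a member. The members' median was -0.0045 with median-ratio scaling, 0.0091 with quantile normalization (21 members lower), -0.0070 with a covariate for the share of reads on genes, 0.0068 with the GC trend removed and -0.018 with control 2 left out and that covariate, where 4 members were at an unadjusted p under 0.05. Of the 17 members given in full, 7 kept their direction under every alternative.

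The log2 fold change turned positive for these genes, and the cause was not tested. With the GC trend removed it was 0.049 for Dlgap2, 0.080 for Dlgap3, 0.13 for Shank1, 0.027 for Ptprs and 0.059 for Pick1. With median-ratio scaling it was 0.051 for Dlgap3, 0.089 for Shank1 and 0.0048 for Pick1. With quantile normalization it was 0.12 for Dlgap3, 0.16 for Shank1, 0.0039 for Nlgn2, 0.011 for Ptprs, 0.0089 for Adgrb2 and 0.015 for Agap2. With the share covariate it was 0.21 for Dlgap3, 0.071 for Shank1, 0.0073 for Shank3, 0.095 for Nlgn2, 0.074 for Lrrtm1, 0.034 for Ptprs, 0.050 for Adgrb2 and 0.058 for Agap2. With control 2 left out and that covariate it was 0.20 for Dlgap3, 0.091 for Shank1, 0.070 for Nlgn2 and 0.019 for Lrrtm1. With voom it was 0.034 for Shank1.

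Whether the replicate numbers pair the samples is not settled. The correlation of deviations between same-numbered libraries ran from -0.30 to 0.62, and 1 of 5 controls correlated best with its own number. With the replicate number as a block, 0 members and 0 genes passed, and the members' median was -0.14. At an unadjusted p under 0.05 were 17 members against 13 (37.0%, beside 34.6% of all genes tested). Control 4-5 was taken as number 4 in both checks, so toxicant 5 had no partner and did not bear on the block's group difference. Counting error is largest for members with few reads, and reached the control spread for Lrrtm3.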
